A study of Rattus norvegicus with 4 samples.

Results

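The genes described here are the splicing-factor genes of the rat whose RefSeq symbols begin with Snrp, Srsf, Sf3a, Sf3b, Hnrnp, Prpf or U2af, as measured in nanotube-exposed alveolar macrophages. RefSeq lists 222 such symbols, 76 protein coding and 146 pseudogenes. Probes named through their accession measured 63 of them, all protein coding, out of 16581 measured genes. The cells were NR8383, a single permanent line obtained by washing the lung of a normal rat, and stand for alveolar macrophages only as far as 1 line can. After 20 passages and 48 h in flasks they were exposed for 4 h to carboxylated carbon nanotubes of the type NRCWE042, at 6.8 cm2 of nanotube surface per cm2 of culture. The 4 arrays, 1 per biological replicate as the series' design text calls them, form 1 group. Unexposed cells were not analysed here, so no test between conditions was possible and no value here measures a response to the nanotubes. The arrays show which splicing-factor genes gave signal in exposed cells and how far the 4 replicates differed.

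Splicing removes introns from pre-mRNA in the spliceosome, which is built anew on each intron from small nuclear ribonucleoproteins (snRNPs). The U1 snRNP pairs with the 5′ splice site, U2AF and the U2 snRNP mark the 3′ splice site and the branch point, and the U4/U6.U5 tri-snRNP then joins to form the catalytic core. SR proteins (Srsf genes) generally promote the use of the exons they bind, and heterogeneous nuclear ribonucleoproteins (Hnrnp genes) often oppose it and package the transcript. Many of these proteins control their own mRNA through alternative splicing. Activated macrophages are known to alter the splicing of inflammatory transcripts.

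A level below is the log2 processed signal of a probe minus the 75th percentile of its own array, so 1 unit is a doubling. It is compared between arrays for the same probe and never between genes, because probes differ in affinity. A gene with several probes takes its brightest. A gene was called detected when the scanner software marked at least 1 of its probes as well above background, in more than 50% of the probe's spots, on each of the 4 arrays. The 75th percentile of the signal was 128, 131, 98.6 and 49.0 on replicates 1 to 4, and 38.8%, 36.8%, 35.3% and 31.1% of probes were well above background. Replicate 4 was therefore the dimmest array. An area of low signal covered 3.75% of sample spots on replicate 3, and a smaller one inside the same rows and columns covered 1.25% on replicate 4. Of the 269 spots of splicing-factor probes, 7 lay in the area on replicate 3 and 4 in that on replicate 4, as the map of the spots shows. These spots belong to Hnrnpa1, Hnrnpm, Hnrnpr, Prpf19, Prpf40b and Srsf2. The labelled cell type was checked against markers: 11 of 14 macrophage genes were detected, Adgre1, Cd163 and Marco being the exceptions. None of 8 lung epithelial and none of 6 neuronal markers was detected, whereas 1 of 8 fibroblast (Dcn), 1 of 4 neutrophil (Camp), 2 of 5 lymphocyte (Cd3d, Nkg7) and 3 of 4 endothelial markers (Cdh5, Pecam1, Vwf) were.

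**Figure D1:**
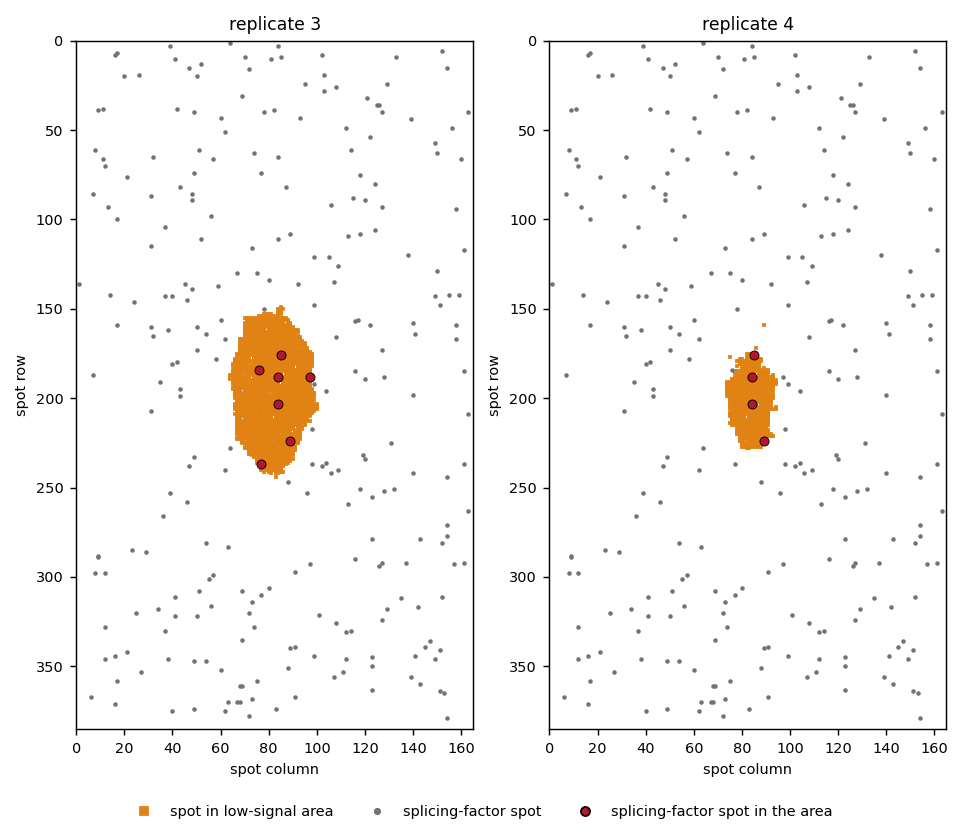
Positions of spots on the arrays of replicates 3 and 4, by spot column (x axis) and spot row (y axis). Orange squares are sample spots in the low-signal area (2199 on replicate 3 and 735 on replicate 4), grey points are splicing-factor spots, and red points are the 7 and 4 splicing-factor spots inside the areas.

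Most of the splicing machinery was detected in the exposed cells. Of the 63 measured splicing-factor genes, 54 (85.7%) were detected on all 4 arrays, against 44.4% of all measured genes. All 6 Sf3b genes and both U2af genes were detected, as were 17 of 19 Hnrnp, 10 of 12 Prpf, 9 of 11 Snrp, 8 of 10 Srsf and 2 of 3 Sf3a genes. Over the 4 arrays the SD of the level had a median of 0.18 log2 units among the 54 detected splicing-factor genes and 0.25 among all 7364 detected genes. With the normexp background correction the order turned, at 0.27 among splicing-factor genes and 0.23 among all, and with spike-in scaling it turned too, at 0.70 and 0.60. An SD over 0.5 was found for 2 of the 54 (3.7%), Hnrnpr and Sf3a2, against 11.6% of all detected genes. An SD under 0.1 was found for 15 (27.8%), against 13.2%. The SD was also set out by brightness, with the scaling used throughout. Among genes with a mean level of 4 or more the median SD was 0.147 for 23 splicing-factor genes and 0.24 for all 2016 genes, and from 2 to 4 it was 0.182 for 21 and 0.232 for all 2108. Below 2 the medians were 0.267 for 10 splicing-factor genes and 0.27 for all 3240. The medians of both sets were thus closest in the dimmest range. Among genes read by 1 spot the medians were 0.189 for 37 splicing-factor genes and 0.254 for all 6480, among those read by 2 spots 0.259 for 5 and 0.257 for all 406, and among those read by 10 spots 0.0918 for 12 and 0.214 for all 478.

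**Figure D2:**
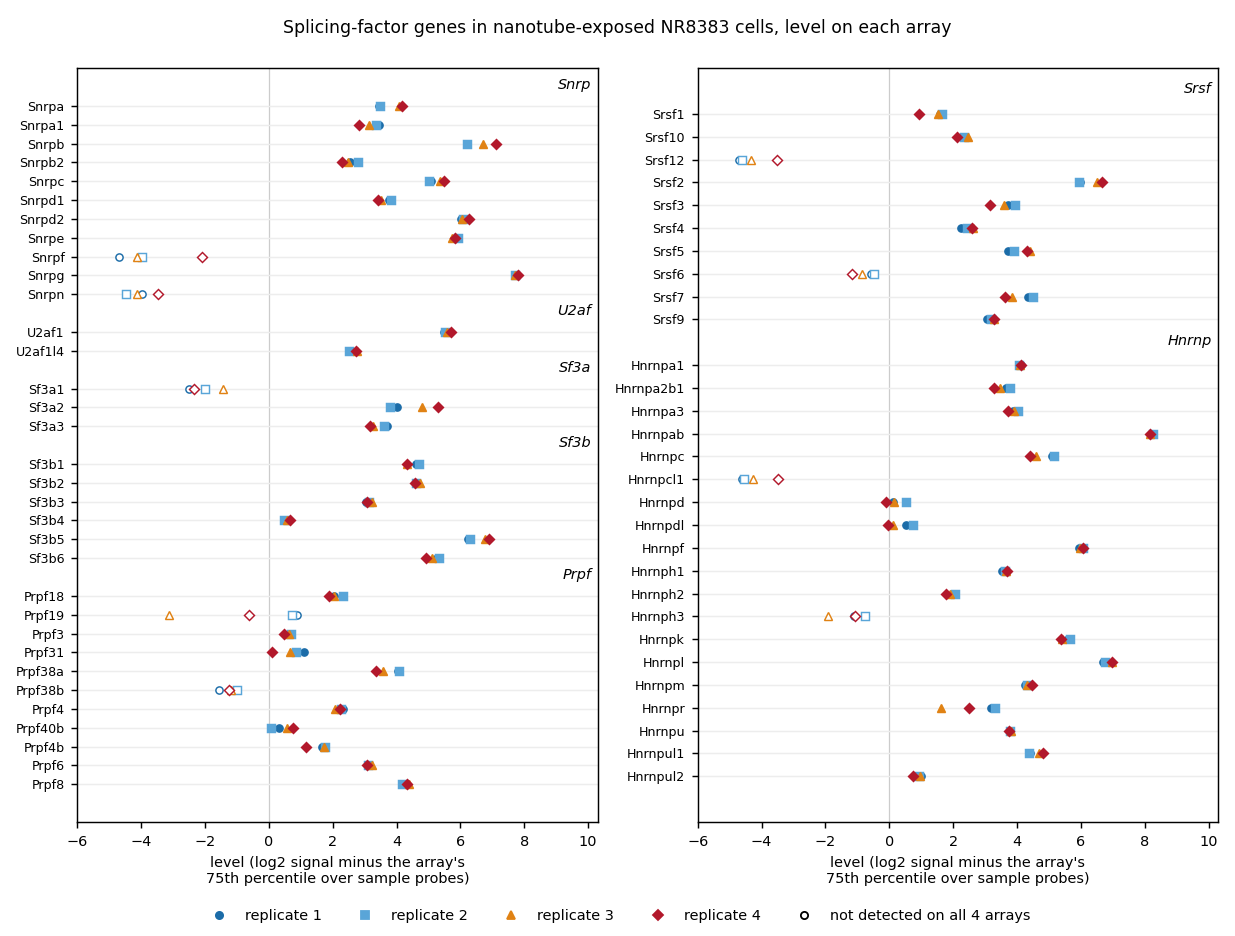
Level of 62 of the 63 splicing-factor genes on each array, in log2 units relative to the array's 75th percentile, grouped by family (x axis level, 1 row per gene). Filled symbols are the 53 genes detected on all 4 arrays and open symbols the other 9. The symbols of most detected genes overlap, while those of Sf3a2, Hnrnpr and Prpf31 spread over more than 1 unit.

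**Figure D3:**
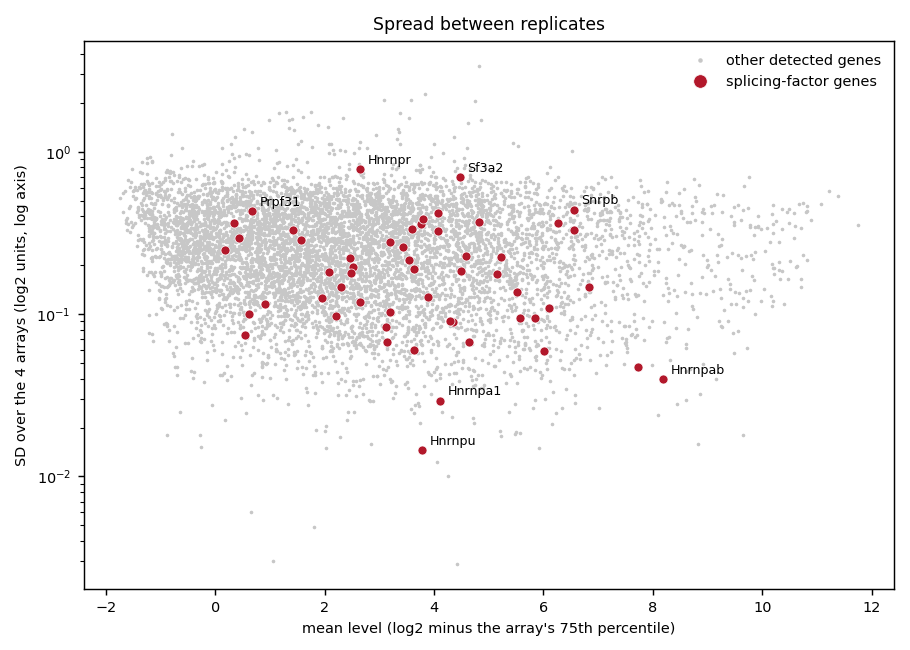
SD of the level over the 4 arrays (y axis, log scale, log2 units) against the mean level (x axis, log2 units) for the 54 detected splicing-factor genes in red and the other detected genes in grey. The red points run between 0.0145 (Hnrnpu) and 0.78 (Hnrnpr), and most lie in the lower part of the grey cloud at mean levels above 2.

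The small differences between arrays were shared by many of the genes and did not run the same way in all of them. Relative to its own mean over the arrays, the median splicing-factor gene lay at -0.01, 0.04, 0.00 and -0.04 log2 units on replicates 1 to 4. The median over all detected genes lay at -0.07, -0.06, 0.06 and 0.10. On replicates 1 to 4, 25, 31, 27 and 23 of the 54 genes were above their own mean, against 38.4%, 42%, 61.9% and 59.8% of all detected genes. On replicates 3 and 4 the share above their mean was thus smaller than among all genes, and on replicates 1 and 2 it was larger. By this measure 16 genes (29.6%) were below their own mean on replicates 1 and 2 and above it on replicates 3 and 4, against 44.9% of all detected genes, and 18 (33.3%) were the reverse, against 23.7%. Measured against that all-gene median of each array, which lies above 50% of detected genes by construction, 37, 41, 20 and 14 of the 54 were above it. Against the all-gene median, 29 splicing-factor genes (53.7%) lay above it on replicates 1 and 2 and below it on replicates 3 and 4, a sequence that 34.2% of all detected genes followed. The opposite sequence was followed by 10 (18.5%), against 35.1% of all detected genes. The 29 included 13 of the 17 detected Hnrnp genes, 6 of 10 Prpf, 5 of 9 Snrp, 2 of 8 Srsf, 2 of 6 Sf3b and 1 of 2 Sf3a genes. The 10 were Hnrnpl, Hnrnpul1, Prpf40b, Sf3a2, Sf3b5, Snrpa, Snrpb, Snrpc, Srsf2 and Srsf5. Under 5 other settings for scaling, background correction and the low-signal areas, 21 of the 29 and 5 of the 10 kept their sequence throughout, and all the others lost it under the normexp background correction, Hnrnpd and Hnrnpl under quantile normalization too. Of the 5 settings, spike-in scaling and the percentile over detected probes shift whole arrays and cannot change a sequence taken relative to all genes. The 5 genes were Hnrnpul1, Sf3a2, Snrpa, Snrpb and Srsf2. Replicate 4 was the dimmest array and replicate 3 the next, and the part of signal strength in these sequences was not tested. Each array reads the RNA of many cells, so a difference in RNA per cell and a difference in the share of cells in some state cannot be told apart.

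**Figure D4:**
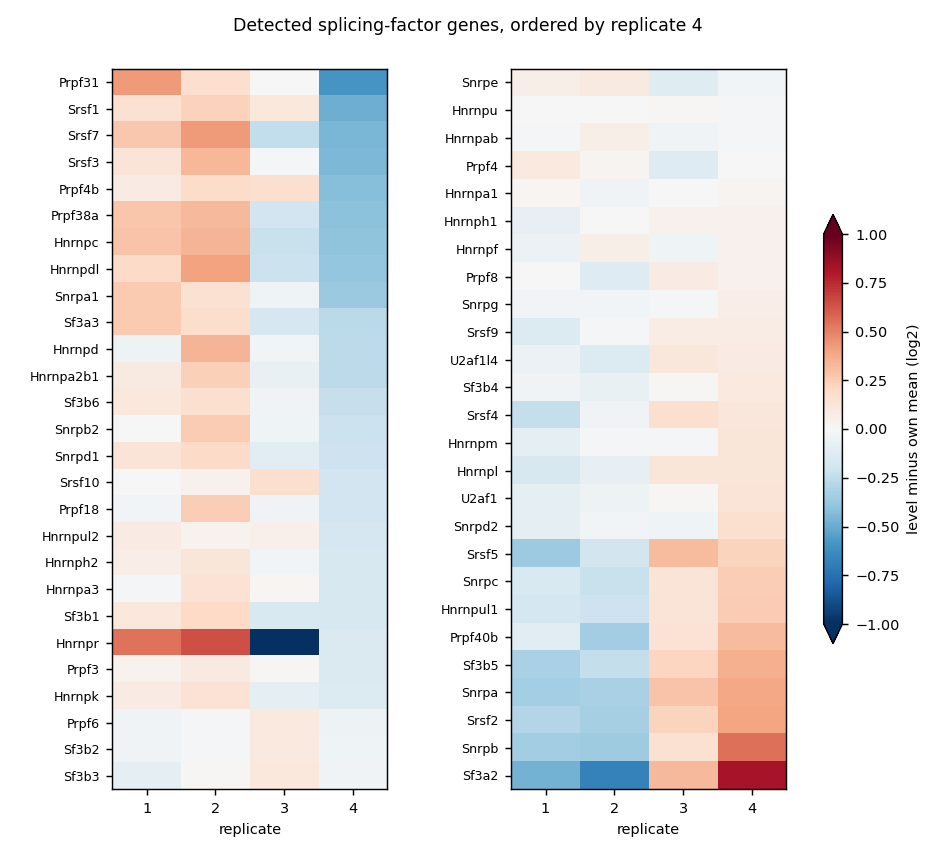
Level of 53 of the 54 detected splicing-factor genes (rows, ordered by replicate 4) on each array (columns), as the difference from the gene's own mean in log2 units. Red is above and blue below the mean, and the scale stops at 1 unit either way; Prpf31 leads the genes that were low on replicate 4, Sf3a2 is highest there, and Hnrnpr on replicate 3 passes the scale.

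The promoters of 4 genes are shown because they stand at opposite ends of those sequences, Sf3a2 and Snrpb being high on replicates 3 and 4 and Hnrnpc and Srsf7 high on replicates 1 and 2. Each holds 250 bases before and 50 bases after the start of the gene, from RefSeq on build GRCr8. They lie at chr7:9566156-9566455 on the minus strand, chr3:137832430-137832729 on the minus strand, chr15:27282666-27282965 on the minus strand and chr6:20563802-20564101 on the plus strand. Capitals mark every exact match, on either strand, of 4 motifs. These are GGGCGG (the GC box), CCGGAAG (an ETS-type site), TATAAA (a form of the TATA box, a core promoter element) and TGACGTCA (a cAMP response element).
Sf3a2: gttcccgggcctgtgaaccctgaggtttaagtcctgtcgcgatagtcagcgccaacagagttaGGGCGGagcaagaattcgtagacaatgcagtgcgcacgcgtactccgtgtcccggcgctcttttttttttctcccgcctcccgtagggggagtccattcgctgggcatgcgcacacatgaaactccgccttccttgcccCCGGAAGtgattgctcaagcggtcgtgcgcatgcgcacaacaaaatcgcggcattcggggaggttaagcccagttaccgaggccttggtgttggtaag
Snrpb: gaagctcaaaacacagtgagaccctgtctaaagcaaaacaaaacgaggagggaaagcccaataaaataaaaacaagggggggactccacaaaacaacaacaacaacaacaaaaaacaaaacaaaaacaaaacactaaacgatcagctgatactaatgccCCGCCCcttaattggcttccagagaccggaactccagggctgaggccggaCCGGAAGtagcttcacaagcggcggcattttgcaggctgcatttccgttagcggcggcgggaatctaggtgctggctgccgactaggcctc
Hnrnpc: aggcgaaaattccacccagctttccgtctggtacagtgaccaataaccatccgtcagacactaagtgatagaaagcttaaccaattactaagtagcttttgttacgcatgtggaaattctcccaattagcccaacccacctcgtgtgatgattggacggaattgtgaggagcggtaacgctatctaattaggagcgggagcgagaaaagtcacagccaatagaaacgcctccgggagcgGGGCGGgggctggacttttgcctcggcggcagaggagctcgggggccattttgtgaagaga
Srsf7: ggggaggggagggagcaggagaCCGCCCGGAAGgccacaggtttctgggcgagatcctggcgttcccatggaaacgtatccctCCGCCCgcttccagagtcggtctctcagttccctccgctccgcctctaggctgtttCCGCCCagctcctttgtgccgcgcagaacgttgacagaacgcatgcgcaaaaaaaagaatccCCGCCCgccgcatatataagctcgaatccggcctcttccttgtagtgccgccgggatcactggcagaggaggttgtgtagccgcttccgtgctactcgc
Sf3a2 and Snrpb each hold 1 GC box and 1 ETS-type match. Hnrnpc holds 1 GC box and none of the other motifs in this window. Srsf7 holds 4 GC boxes and 1 ETS-type match, the first box overlapping the ETS-type match in a single run of capitals. The tatataag of Srsf7 differs from TATAAA and was not marked, since only exact matches were searched.

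Promoters were found for 61 of the 63 genes, 52 of them detected. A GC box was present in 55.7% of the 61, against 48.2% of all measured genes and 34.9% of all 27457 RefSeq promoters. Among detected genes it was present in 59.6% of splicing-factor genes and 62.9% of all. The ETS-type motif was present in 27.9%, against 12.7% of all measured genes and 9.22% of all promoters. Among detected genes it was present in 28.85% of splicing-factor genes and 21.2% of all. The 17 carriers among the 61 include Snrpb, Snrpb2, Snrpd1, Snrpe, Snrpg and all 3 Sf3a genes. An exact TATAAA, other forms of the TATA box not being counted, was present in 9.84%, against 12.1% of all measured genes and 14.3% of all promoters. Its carriers were Hnrnpab, Hnrnpd, Hnrnpm, Snrpg, Srsf2 and Srsf3. Among detected genes TATAAA was present in 11.5% of splicing-factor genes and 6.98% of all. The median ratio of observed to expected CpG was 0.915, against 0.636 for all measured genes and 0.417 for all promoters. Among detected genes it was 0.952 for splicing-factor genes and 0.787 for all. For 14 of the 61 (23%) a neighbouring gene starts within 1000 bases on the opposite strand, as Cbx3 does beside Hnrnpa2b1, Mfsd11 beside Srsf2 and Plekhj1 beside Sf3a2. The same holds for 12.7% of all measured genes. Among detected genes it holds for 26.9% of splicing-factor genes and 18.8% of all.

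The Snrp genes encode proteins of the Sm ring, which surrounds most spliceosomal snRNAs, and proteins particular to U1 and U2. Snrpb, which encodes the ring proteins SmB and SmB′, read 6.21, 6.21, 6.72 and 7.11 on replicates 1 to 4, with an SD of 0.44. Replicates 3 and 4 lay above replicates 1 and 2, and the range of 0.91 log2 units corresponds to 1.87-fold. Snrpa, protein A of the U1 snRNP, had levels of 3.45, 3.48, 4.08 and 4.18 (SD 0.39). Snrpc, protein C of the U1 snRNP, which steadies the pairing with the 5′ splice site, had levels of 5.07, 5.00, 5.35 and 5.47 (SD 0.23). All 3 of these genes were lowest on replicates 1 and 2, and both other probes of Snrpc had their lower values on the same arrays.

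The partners of U2 RNA and the other Sm proteins ran the other way or hardly differed. Snrpa1, protein A′ of the U2 snRNP, read 3.45, 3.34, 3.14 and 2.82 (SD 0.28), and its second probe read 3.35, 3.31, 2.86 and 2.73. Snrpb2, protein B″, which binds U2 RNA together with protein A′, read 2.53, 2.78, 2.48 and 2.30 (SD 0.19). Both were lowest on replicate 4. Snrpd1 (SmD1) had levels of 3.75, 3.81, 3.51 and 3.42, and Snrpe (SmE) of 5.90, 5.94, 5.72 and 5.82. Snrpg (SmG) had 7.70, 7.70, 7.71 and 7.80, with an SD of only 0.0473, and Snrpd2 (SmD2) had 6.01, 6.07, 6.06 and 6.26. By the scaling used throughout, Snrpg and Snrpd2 were thus nearly level over the first 3 replicates and slightly higher on replicate 4. Relative to the all-gene median of each array, Snrpg lay at 0.04, 0.04, -0.07 and -0.03 and Snrpd2 at -0.02, 0.04, -0.10 and 0.06. RefSeq holds 10 pseudogenes named for Snrpc, 8 for Snrpg and 3 each for Snrpe and Snrpd2, so signal from near-identical copies, where transcribed, cannot be told apart from that of the genes named.

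Snrpf and Snrpn were the Snrp genes below detection. Snrpf encodes SmF, without which no Sm ring is complete, yet its single probe read -4.70, -3.97, -4.15 and -2.11 and was well above background on none of the arrays. That probe reports only on the sequence it was designed for, and no second probe was named for Snrpf. Snrpn encodes the Sm protein that takes the place of SmB in neurons, and its probe, printed 10 times, read -3.96, -4.47, -4.14 and -3.46 and was also well above background on none. Snrpd3, the partner of SmB in the ring, had no named probe.

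U2AF and SF3 recognise the 3′ splice site and the branch point. U2af1, the subunit that contacts the AG at the end of the intron, read 5.49, 5.53, 5.59 and 5.71 (SD 0.0945), with the 4 arrays within 0.22 log2 units. U2af1l4, a close relative of U2af1, read 2.58, 2.50, 2.75 and 2.72 (SD 0.12). U2af2, the subunit that binds the pyrimidine tract, had no named probe.

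The 3 SF3A genes encode one heterotrimer of the U2 snRNP, but their readings differed in kind. Sf3a2 read 4.00, 3.80, 4.79 and 5.30 (SD 0.70), and replicate 4 stood 1.29 log2 units above the median of the other 3. It was 1 of 54 genes past 1 unit upward on an array, against 6.44% of all detected genes. Under spike-in scaling Sf3a2 lay 0.004, -0.11, 0.15 and -0.04 from its own mean on replicates 1 to 4 and was not past 1 unit. Relative to the all-gene median, which spike-in scaling shifts along with it, Sf3a2 lay at -0.40, -0.61, 0.26 and 0.72. Its second probe, much dimmer, had the same order of arrays, at -1.77, -2.01, -1.56 and -0.60. Sf3a3 went the opposite way with 3.69, 3.61, 3.26 and 3.16 (SD 0.26), so that replicate 4 was the lowest array for this subunit and the highest for Sf3a2. Sf3a1 was well above background on 2 arrays only and read -2.50, -1.99, -1.45 and -2.34.

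All 6 SF3B genes were detected, and 5 of them had SDs under 0.2 by the scaling used throughout. Sf3b1, the large subunit that clamps the branch point helix, read 4.59, 4.69, 4.33 and 4.33 (SD 0.18). Sf3b2 read 4.60, 4.61, 4.73 and 4.59 (SD 0.0668) and Sf3b3 read 3.03, 3.14, 3.23 and 3.09 (SD 0.0836). Sf3b4, which binds pre-mRNA beside the branch point, read 0.51, 0.48, 0.56 and 0.65 (SD 0.0739). In these 4 genes the lowest and highest arrays lay within 0.36 log2 units. Sf3b6, the p14 protein at the branch point, read 5.26, 5.32, 5.12 and 4.92 (SD 0.18). Sf3b5, a small subunit that sits on Sf3b3, read 6.23, 6.31, 6.76 and 6.90 and had the widest SD of the family, 0.33. Replicates 3 and 4 were its highest arrays, as for Sf3a2, although Sf3b5 did not keep that sequence relative to all genes under the normexp background correction.

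The Prpf genes mostly belong to the tri-snRNP. Prpf8, the scaffold of the catalytic core, read 4.29, 4.17, 4.38 and 4.34 (SD 0.0907), and Prpf6, which bridges U5 and U4/U6, read 3.11, 3.12, 3.24 and 3.09 (SD 0.067). By the scaling used throughout, both were nearly the same on all 4 arrays. With the normexp background correction, Prpf8 lay -0.02, -0.07, 0.31 and -0.21 from its own mean on replicates 1 to 4. Under that correction Prpf6 lay at 0.02, 0.13, 0.21 and -0.35. The U4/U6 proteins Prpf3 and Prpf4 read 0.65, 0.70, 0.63 and 0.47 and 2.31, 2.24, 2.08 and 2.22, with SDs of 0.10 and 0.0966. Prpf31, which holds U4 and U6 together and whose human gene is mutated in retinitis pigmentosa, was more variable at 1.10, 0.85, 0.67 and 0.09 (SD 0.43). Its value on replicate 4 was the lowest, and its second probe was well above background on no array.

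Other Prpf genes have varied roles in splicing. Prpf38a, needed for activation of the spliceosome, read 4.03, 4.08, 3.57 and 3.35 (SD 0.36), with replicates 3 and 4 below replicates 1 and 2. Prpf4b, a kinase that phosphorylates tri-snRNP proteins, read 1.66, 1.75, 1.73 and 1.15 (SD 0.28), and Prpf18, a factor of the second step, read 2.06, 2.33, 2.05 and 1.89 (SD 0.18). Prpf40b, related to a U1 protein of yeast, read 0.32, 0.08, 0.57 and 0.75 and was highest on replicate 4, while its other 2 probes were not detected on all 4 arrays, 1 of them lying in the area on replicate 3. Prpf19, the ubiquitin ligase of the complex that bears its name, read 0.87, 0.74, -3.13 and -0.64. Its only spot lies in the low-signal area of both arrays, and it was not well above background on 1 of the 4. Prpf38b read -1.55, -0.99, -1.19 and -1.24 and was well above background on 3.

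Among detected SR genes, Srsf7 and Srsf2 had the largest SDs. Srsf2, which binds both G-rich and C-rich exonic enhancers, read 5.98, 5.94, 6.49 and 6.66 (SD 0.36), and its dim second probe read -0.61, -0.61, 0.04 and 0.25. Srsf5 had its own higher values on the same arrays, at 3.72, 3.89, 4.40 and 4.30 (SD 0.33). That probe lies on 1 Srsf5 transcript record, and the 2 probes on another record read 3.37, 3.33, 3.37 and 3.46 and 2.63, 2.67, 2.80 and 2.73. Those 2 probes differed less between arrays than the first, with SDs of 0.055 and 0.0732.

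Srsf7, the SR protein with a zinc knuckle, read 4.35, 4.50, 3.84 and 3.62 (SD 0.42). Srsf3, its close relative and the smallest of the family, read 3.72, 3.93, 3.58 and 3.14 (SD 0.33), and its second probe read 0.18, 0.21, -0.27 and -0.35. Both were lowest on replicate 4, and for Srsf3 the value on replicate 3 was above the all-gene median under the normexp correction. RefSeq holds 7 pseudogenes named for Srsf7 and 10 for Srsf3. The second probe of Srsf7, on another transcript record, was well above background on 3 arrays and read -0.02, -0.18, -0.33 and -1.33.

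Srsf1, the founding member also known as SF2/ASF, read 1.57, 1.65, 1.53 and 0.94 (SD 0.33), with only replicate 4 apart from the rest. Srsf10, a repressor when dephosphorylated, read 2.30, 2.35, 2.46 and 2.11 (SD 0.15), and Srsf4 and Srsf9 had SDs of 0.18 and 0.10. Srsf6 read -0.58, -0.49, -0.86 and -1.16 and was well above background on 3 arrays. Srsf12, a related repressor, read -4.72, -4.61, -4.33 and -3.53 and was well above background on none. Srsf11 and Srsf8 had no named probe.

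By the scaling used throughout, the Hnrnp genes held the values that differed least between arrays. Hnrnpu, the scaffold attachment protein of chromatin-bound RNA, read 3.79, 3.78, 3.80 and 3.76 and had the smallest SD of all 54 genes, 0.0145. Hnrnpa1, a repressor of exon inclusion that packages nascent transcripts, read 4.12, 4.07, 4.10 and 4.14 (SD 0.0293), and Hnrnpab read 8.18, 8.25, 8.15 and 8.18 (SD 0.0396). In all 3 the arrays lay within 0.1 log2 units. With the normexp background correction, Hnrnpu lay 0.36, 0.33, -0.26 and -0.43 from its own mean on replicates 1 to 4. Under that correction Hnrnpa1 lay at -0.35 and Hnrnpab at -0.45 on replicate 4. Against the all-gene median, all 3 lay above it on replicates 1 and 2 and below it on replicates 3 and 4. RefSeq holds 50 pseudogenes named for Hnrnpa1, and its 4 other probes had SDs from 0.14 to 0.28. Hnrnpf and Hnrnph1, which bind G tracts, had SDs of 0.0588 and 0.0599, and Hnrnpm had 0.0892.

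Hnrnpc, which binds uridine tracts and measures the length of nascent RNA, read 5.10, 5.16, 4.60 and 4.41 (SD 0.37). Its second probe followed with 4.74, 4.82, 4.19 and 3.86. Replicates 3 and 4 lay below replicates 1 and 2 on both probes, with 6 Hnrnpc pseudogenes in RefSeq. Hnrnpa2b1, the closest relative of Hnrnpa1, read 3.64, 3.79, 3.48 and 3.29 (SD 0.21), and Hnrnpk, which binds cytosine tracts, read 5.61, 5.67, 5.42 and 5.39 (SD 0.14) with its 3 other probes lowest on replicate 4 as well. Hnrnpd, known as AUF1 for its binding to AU-rich elements of unstable mRNAs, read 0.12, 0.51, 0.14 and -0.09 (SD 0.25), and Hnrnpdl read 0.53, 0.74, 0.12 and -0.05 (SD 0.36). Hnrnpd and Hnrnpdl were both highest on replicate 2. Hnrnpa3 read 3.88, 4.03, 3.90 and 3.72 (SD 0.13), 4 of its 6 probes being detected.

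Hnrnpl, which binds CA repeats, and Hnrnpul1 were the Hnrnp genes with the opposite sequence. Hnrnpl read 6.68, 6.75, 6.96 and 6.96 (SD 0.15), and it lost that sequence under quantile normalization and normexp. Hnrnpul1 read 4.40, 4.37, 4.70 and 4.83 (SD 0.23) and kept it. The widest SD of all 54 genes was that of Hnrnpr, at 3.19, 3.30, 1.61 and 2.51 (SD 0.78). It was the only detected splicing-factor gene more than 1 unit below the median of the other 3 arrays, against 4.18% of all detected genes. Its probe has 2 spots: that outside the low-signal areas read 3.11, 3.18, 3.01 and 2.74, and that inside read 3.28, 3.41, 0.21 and 2.27. The low value on replicate 3 was thus present on 1 spot only. Hnrnph3 read -1.09, -0.78, -1.93 and -1.07 and was well above background on 3 arrays, and Hnrnpcl1 read -4.63, -4.54, -4.28 and -3.48 and was well above background on none. Hnrnpll and Hnrnpa0 had no named probe.

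Probes printed 10 times on each array show how much of a difference lies between spots and how much between arrays. There were 16 such detected probes, in 12 of the genes. The median SD over the spots of 1 array was 0.0592 for these probes and 0.0636 for the 1015 detected probes of this kind on the array. Divided by the square root of the number of spots, the SD over spots gives the error that spots leave in an array's mean. The SD between the 4 array means was larger than this error for 16 of the 16 probes, by 1.46 to 32.8 times. This was not counted over the other probes printed 10 times, so it does not set the splicing-factor genes apart. For Srsf7 the SD between arrays was 0.42 and the spot error of a mean 0.0127, and for Srsf2 they were 0.36 and 0.0152. For Hnrnpa1 they were 0.0293 and 0.0201, so the arrays differed less in Hnrnpa1 than in Srsf7 or Srsf2. The 10 spots share 1 labelled RNA, so they say nothing about labelling or the cells. The spot of Srsf2 inside the low-signal areas read 5.10 on replicate 3, where the spots outside read 6.33 to 6.59. It was marked as an outlier there and left out. The spot of Hnrnpm in the area on replicate 3 was kept, and read 3.94 against 4.31 for the next lowest spot.

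**Figure D5:**
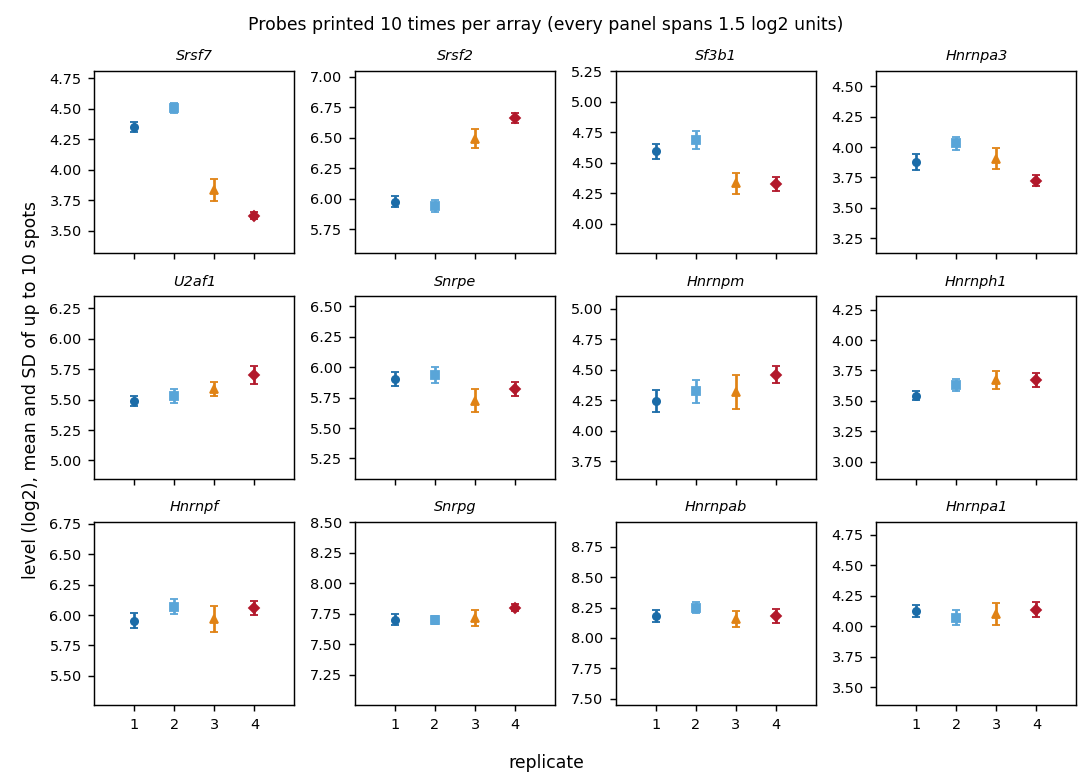
Mean level of up to 10 spots (y axis, log2 units; bars are the SD over spots) on each array (x axis) for the 12 splicing-factor genes whose brightest probe was printed 10 times. Every panel spans 1.5 units; Srsf7 and Srsf2 show the widest differences between arrays, in opposite directions, and Hnrnpa1 the narrowest.

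A second probe offers another check within a gene. For 24 splicing-factor genes with 2 or more detected probes, the 2 brightest lay on the same side of their own means in 77 of 96 values (80.2%), against 75.8% over 1251 genes of this kind. All 4 arrays matched in 11 of the 24 (45.8%), against 48.9% of all genes of this kind: Hnrnpc, Hnrnpk, Hnrnpl, Sf3a3, Sf3b6, Snrpa1, Snrpc, Snrpd1, Snrpe, Srsf2 and Srsf3. Sf3a2 matched on 3 arrays, Hnrnpa1 on 2 and U2af1l4 on 1. In 8 genes the probes differed in detection: Hnrnpa3, Hnrnpr, Prpf18, Prpf31, Prpf40b, Sf3b1, Srsf10 and Srsf7.

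The other genes of the splicing pathway come from 7 lists of genes named with other prefixes. They were detected in 110 of 137 cases (80.3%), against 44.4% of all measured genes. An SD over 0.5 was found for 5 of the 110 (4.55%), against 11.6% of all detected genes. Among LSm and further snRNP proteins 20 of 21 were detected, Snrnp25 of the minor spliceosome being the exception. Among partners of the U2 snRNP and of the Prpf19 complex, 25 of 25 were detected, and of minor spliceosome proteins 6 of 6. In the SMN pathway, which assembles Sm rings onto snRNAs, 13 of 15 were detected, the others being Gemin2 and Tgs1, each on 3 arrays. Gemin2 read 0.93, 0.94, -1.72 and -0.33, and its probe lies in a low-signal area, unlike that of Tgs1. Of the SR-related proteins and SR kinases 15 of 20 were detected, the others being Bclaf1, Pnn, Srek1, Srpk3 and Srrm2. Of the exon junction complex 7 of 8 were detected, Upf2 being the exception.

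The list of further splicing regulators was detected in 25 of 43 cases (58.1%), against 44.4% of all measured genes. Of the other 18, 13 were well above background on no array. Several of those are factors of neurons or epithelium. Elavl2, Elavl3 and Elavl4, the neuronal Hu proteins, were among them, as were Celf6 and the epithelial regulator Esrp1, while Celf5 was well above background on 3 arrays. Mbnl1 and Pspc1 were also well above background on 3 arrays, and the probe of each lies in a low-signal area. Mbnl1 read 0.06, 0.07, -3.15 and -0.82, and Pspc1 read 0.42, 0.43, -1.52 and -0.76. More than 1 unit below the median of the other arrays on some array were 4 of the 110 (3.64%), against 4.18% of all detected genes, and more than 1 unit above it 1 (0.909%), against 6.44%. Plrg1, a protein of the Prpf19 complex, read 2.67, 2.75, 1.87 and 1.67, and Gemin6, of the SMN complex, read 1.14, 1.24, 0.36 and -0.14. Both were lower on replicates 3 and 4. Scaf1, an SR-related protein, was higher on these arrays at -0.32, -0.51, 0.36 and 0.72. Sart1, a tri-snRNP protein, read 2.62, 2.73, 0.63 and 2.36, and Wdr77, a partner of the arginine methyltransferase that modifies Sm proteins, read 2.59, 2.67, 1.59 and 2.27. Sart1 and Wdr77 were low on replicate 3, and both have a probe in its low-signal area.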

How the data were processed

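RNA of 4 samples of exposed NR8383 cells was measured on 4 one-colour Agilent arrays sharing 1 slide and 1 scan; the series' design text calls them biological replicates, and whether they were separate cultures is not given in the sources used here. The deposited files hold linear spot intensities that, per the file headers, Agilent Feature Extraction 11.0.1.1 had background-corrected within each array. From these, log2 was taken, spots marked as outliers were dropped, the mean over the spots of each probe was taken, and this value was set against the 75th percentile of its array (45598 sample probes). Accessions named 21109 probes through RefSeq on GRCr8; 24489 stayed unnamed. No spot was saturated. A low-signal area was defined by windows of 11 by 11 spots whose median lay over 0.5 log2 units below the other arrays. Alternatives were other scalings, detection rules and probe summaries, each replicate left out, and normexp (limma 3.58.1, R 4.3.3, offset 50), run on the spot median because no spot mean was in the files. Python 3.11.15, numpy 2.4.6 and pandas 2.3.3 were used, and steps were tested on simulated data. With 1 group there was no test. Arrays give no read depth, and their number limits the precision.

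Genes named are all members not detected, all of families with 6 or fewer measured genes, a roster of well-known members, the 12 with the largest and 6 with the smallest SD, those whose probes differ in detection, and those deviating or lying in a low-signal area. Other members named in lists of a sequence or motif, and those whose SD alone is given, were chosen after their values were seen. The members and lists were chosen with earlier results of these data known. 1 gene counted among the members is not reported here by name.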

Additional observations from a re-analysis of the deposited data

Results flagged for a closer look

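For 3 of the 63 splicing-factor genes (4.76%) 1 array stood apart from the other 3, its gap to the nearest of them taking up more of the whole range than Dixon's 95% critical value for 4 samples. Chance flags about 1 in 20 groups, and 3.14% of all detected genes met the same criterion. All 3 were among the 54 detected splicing-factor genes, of which they are 5.56%. Prpf4b, the tri-snRNP kinase, was lowest on replicate 4 at 1.15, a gap of 0.50 log2 units, and that array was the dimmest. Sf3b2, a subunit of SF3B, was highest on replicate 3 at 4.73, with a gap of 0.12. With the normexp background correction, Sf3b2 lay 0.24, 0.35, -0.09 and -0.50 from its own mean on replicates 1 to 4. Snrpg, the SmG protein, was highest on replicate 4 at 7.80, with a gap of 0.0845. Relative to the all-gene median, Snrpg lay at -0.03 on that array.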

How the results depend on the processing

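The number of detected splicing-factor genes, 54, ranged between 46 when every probe had to be detected and 60 with positive and significant signal as the criterion. It was 58 with detection on 3 of 4 arrays, and 54 to 57 without 1 replicate. The median SD of 0.18 log2 units stayed between 0.16 and 0.27 except under spike-in scaling (0.70). It lay below that of all detected genes except under spike-in scaling (0.60 for all genes) and normexp (0.27, against 0.23 for all genes). Without 1 replicate it was 0.15 to 0.21. The spike-ins as scale put the median shift of the splicing-factor genes at 0.47, 0.60, -0.17 and -0.90 on replicates 1 to 4, and the all-gene median at 0.40, 0.50, -0.12 and -0.76. Normexp moved the splicing-factor median to -0.35 and the all-gene median to -0.13 on replicate 4. Relative to the all-gene median, the splicing-factor genes read 0.06, 0.10, -0.05 and -0.14 by the scaling used above and 0.08, 0.14, 0.00 and -0.22 by normexp. Without 1 replicate, their shift ranged over -0.01 to 0.01 on replicate 1, 0.03 to 0.05 on replicate 2, -0.01 to 0.04 on replicate 3 and -0.04 to -0.03 on replicate 4. Relative to the all-gene median these ranges were 0.03 to 0.10, 0.06 to 0.14, -0.08 to 0.005 and -0.15 to -0.11; replicate 3 turned positive without replicate 2. Genes deviating by over 1 unit numbered 2, and 44 under spike-in scaling, 7 under normexp and 4 with positive and significant signal. They numbered 1 when every probe had to be detected and 1 without the low-signal areas, in both cases Sf3a2. Sf3a2 was not among the 44 under spike-in scaling. Without 1 replicate the number was 1 to 2, the 1 being without replicate 4. The split of genes low on replicates 1 and 2 and high on 3 and 4 against the reverse, each against its own mean, was 16 to 18, and 10 to 28 with the percentile over detected probes, 11 to 27 with quantile normalization, 0 to 49 with spike-in scaling and 2 to 18 with normexp. Relative to all genes it was 10 to 29, and 7 to 26 with normexp. The causes were not tested. No paired analysis was possible because there was 1 group. Dim probes are limited by signal over background, most of all on replicate 4.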
